A study of Rattus norvegicus with 71 samples.

Results

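The nuclear genes for the subunits of respiratory complexes II to V were followed in 2 arteries of the rat. They were taken as the probe sets with a single gene symbol starting with Sdh, Uqcr, Cox4 to Cox8 or Atp5. The assembly factors named Sdhaf and the heart and muscle isoform genes Cox8b and Cox7a1 were left out. The array held 48 such probe sets for 42 genes, of 14217 genes with a probe set of their own, and each gene was read from the probe set with its highest mean log2 signal. Of the 42 genes, 39 were bright enough to test: 4 of complex II, 7 of complex III, 12 of 15 of complex IV and 16 of complex V. The 3 genes below the limit were Cox4i2, Cox6a2 and Cox7b2, isoforms of complex IV. Cox6c-ps1 is named as a pseudogene, and its probe set cannot be told apart here from one that also reads Cox6c.

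The series holds 71 arrays of total RNA from vessels, made to follow gene expression beside vascular pathology with age. Brown Norway rats (BN) and Fischer344 x Brown Norway rats (FBN) were sampled at 6, 15 and 24 months. The vessels were the mesenteric artery and a vessel labelled thoracic artery, which the series title calls aorta and which is called aorta here. Each of the 12 groups had 6 arrays, except BN aorta at 15 months with 5. No genetic change or drug is named for any group, and the treatment protocol cites a model of collateral arteries but links it to no group. The labels do not say whether the arrays of a group came from separate animals, so p-values measure the spread between these arrays. Signals are Affymetrix MAS5 values on a linear scale, and each array's trimmed mean lay between 1000.28 and 1000.43, so a value is relative to the rest of its own array.

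Complex II oxidises succinate, complex III passes electrons from coenzyme Q to cytochrome c, and complex IV hands them to oxygen. Complex V, the ATP synthase, uses the proton gradient that complexes III and IV help build. Brown adipocytes, which lie around the thoracic aorta of rodents, are packed with mitochondria, let protons return through Ucp1 without making ATP, and are known for little ATP synthase beside their respiratory chain.

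Before the results, 2 features of the samples bear on them. First, markers of both strains, 15 for each, were chosen from the 6- and 15-month aorta arrays. All 12 mesenteric arrays of 24 months lay on the side of the strain opposite to their label, and the other 59 arrays lay on the labelled side. Among these 59, the 6- and 15-month aorta arrays had served to choose the markers, so their side was fixed beforehand and is no check. Values of those 12 arrays are therefore given as labelled, and vessel comparisons at 24 months use the mean of both strains. Second, the aorta samples carried brown adipocyte RNA: the median signal of Ucp1 was 85613, 87544 and 75221 in BN aorta at 6, 15 and 24 months and 55156, 43773 and 60247 in FBN aorta, against medians of 19 to 55 in the mesenteric groups. The smooth muscle gene Myh11 was read in both vessels, at 20024 to 61449 in aorta and 39986 to 76186 in mesenteric artery. It was lower in aorta in all 5 vessel comparisons described below, with log2 differences of -0.34 to -0.68 (limma adjusted p from 0.0041 to 0.0369). In whole tissue, fewer cells of a type and less RNA per cell cannot be told apart.

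The sequence just before the transcription start was read for 36 of the 42 members, from RefSeq on build GRCr8, over 250 bases. Searched on both strands were AAGGTCA, the site of oestrogen-related receptors, CCGGAAG, an ETS core of the kind GABP binds, and GCGCATG, part of the site of Nrf1. CCGGAAG stood before 12 of the 36 members (33.3%) and before 7.27% of all 33469 promoters on the build. Each member was read from a single window, whereas those promoters were not limited to a single window per gene or to genes on the array. The sets are thus unlike, and the differences between their shares were not tested. GCGCATG stood before 6 members (16.7%, against 3.26%) and AAGGTCA before 5 (13.9%, against 3.99%). Any of the 3 stood before 16 members (44.4%, against 13.8%), and 4 held both CCGGAAG and GCGCATG: Sdhb, Cox5b, Atp5me and Atp5mg, the last with AAGGTCA as well. The ETS core can share letters with the oestrogen-related receptor site, and it and the Nrf1 letters can each overlap their own other strand. Shown are the promoters of the members at the ends of the vessel comparison described next: Atp5if1 and Cox6b2, the pair lower in aorta, Atp5mc3, which did not differ at 6 months, and Uqcrfs1 and Uqcrc1, which differed most. Capitals mark a match, as TGACCTT, the other strand of AAGGTCA, from 57 to 51 bases before the start of Atp5mc3, and GCGCATG from 39 to 33 bases before that of Uqcrc1. The windows lie at chr5:150026678-150026927 (minus strand) for Atp5if1, chr1:78122621-78122870 (plus) for Cox6b2, chr3:79220665-79220914 (minus) for Atp5mc3, chr17:34186352-34186601 (plus) for Uqcrfs1 and chr8:118467973-118468222 (plus) for Uqcrc1.
Atp5if1: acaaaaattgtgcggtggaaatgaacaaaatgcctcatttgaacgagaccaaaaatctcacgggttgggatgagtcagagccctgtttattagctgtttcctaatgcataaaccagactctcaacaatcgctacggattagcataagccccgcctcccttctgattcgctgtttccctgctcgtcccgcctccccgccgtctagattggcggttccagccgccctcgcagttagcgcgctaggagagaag
Cox6b2: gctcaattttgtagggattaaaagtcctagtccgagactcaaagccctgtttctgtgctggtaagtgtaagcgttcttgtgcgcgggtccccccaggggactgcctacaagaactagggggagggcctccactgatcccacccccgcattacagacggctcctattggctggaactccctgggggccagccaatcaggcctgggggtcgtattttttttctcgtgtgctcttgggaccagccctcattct
Atp5mc3: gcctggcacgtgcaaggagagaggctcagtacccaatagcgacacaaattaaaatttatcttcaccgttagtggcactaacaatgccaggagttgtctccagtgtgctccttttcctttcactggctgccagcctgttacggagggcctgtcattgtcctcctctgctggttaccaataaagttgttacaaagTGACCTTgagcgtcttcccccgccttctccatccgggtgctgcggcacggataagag
Uqcrfs1: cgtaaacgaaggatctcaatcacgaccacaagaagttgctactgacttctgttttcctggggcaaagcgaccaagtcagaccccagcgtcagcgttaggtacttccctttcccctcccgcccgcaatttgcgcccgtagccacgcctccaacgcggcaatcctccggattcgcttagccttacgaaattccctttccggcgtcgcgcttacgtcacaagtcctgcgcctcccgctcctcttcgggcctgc
Uqcrc1: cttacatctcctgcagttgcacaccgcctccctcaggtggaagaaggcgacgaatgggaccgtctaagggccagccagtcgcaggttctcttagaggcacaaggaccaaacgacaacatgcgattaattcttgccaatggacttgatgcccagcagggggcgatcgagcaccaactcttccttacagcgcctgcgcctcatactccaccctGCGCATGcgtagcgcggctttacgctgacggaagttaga
A match is a description of letters. The genes at both ends of the comparison include windows with no match.

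Aorta and mesenteric artery were compared first, within each strain and age. In BN rats at 6 months, 36 of the 39 members were higher in aorta and 2 were lower, where 25.9% and 41.5% of all 16717 probe sets tested were called higher and lower (limma, adjusted p under 0.05). The median log2 difference, aorta minus mesenteric, was 1.77 over the members and -0.18 over all probe sets, of which 4327 were called higher and 6935 lower, or 5360 and 5512 after scaling arrays to their medians. Medians by complex were 2.28 for II, 1.77 for III, 1.66 for IV and 1.69 for V. All 4 members of complex II and all 7 of complex III were called higher, beside 11 of 12 of complex IV and 14 of 16 of complex V. Among these, Cox6b2 and Cox6c-ps1 passed the signal limit in 1 vessel only, Cox6b2 in mesenteric artery and Cox6c-ps1 in aorta, so their differences are given as a description. Without them, a count added after seeing the data, 35 of 37 members were higher and 1 was lower, against 25.5% and 41.2% of the probe sets whose mean over all arrays passed.

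**Figure D1:**
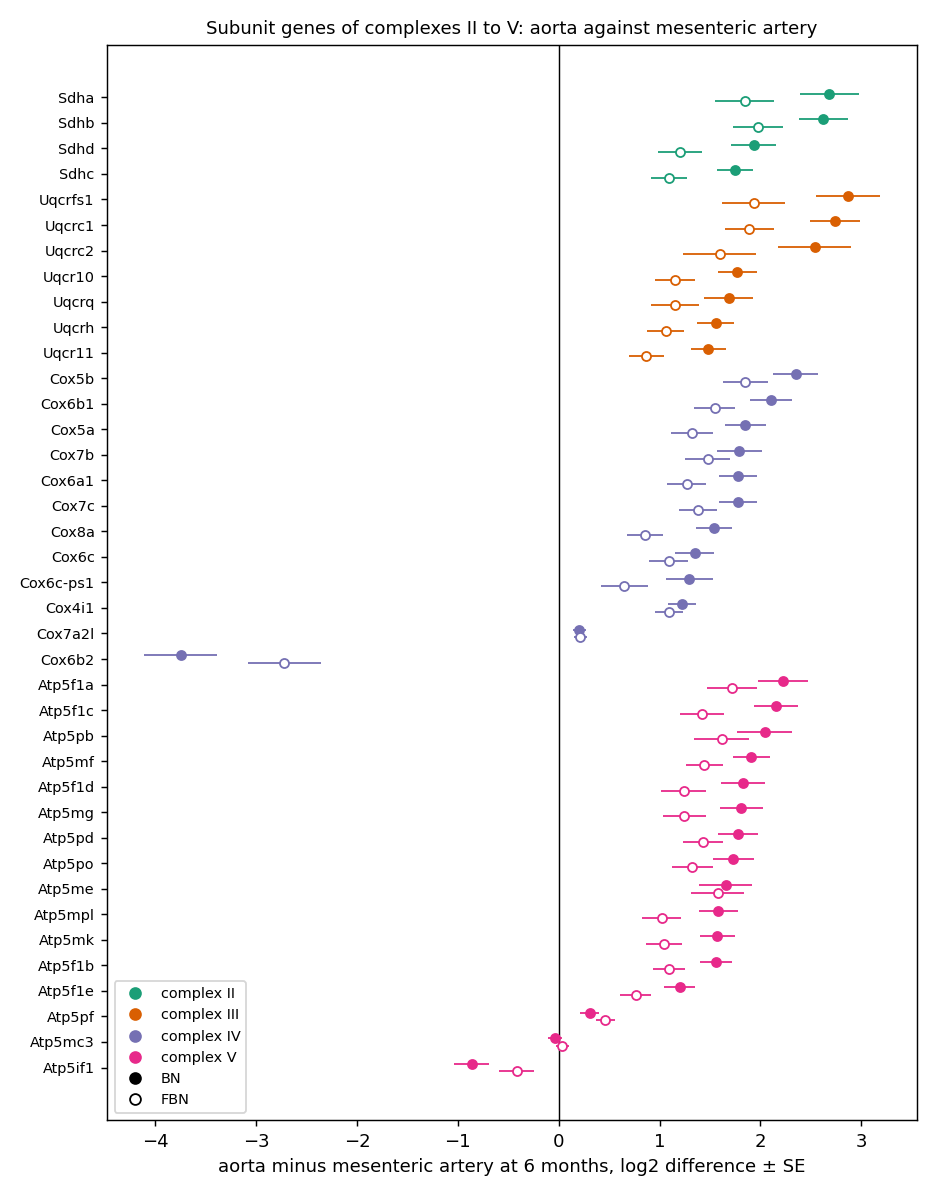
Log2 difference, aorta minus mesenteric artery at 6 months, for each of the 39 tested members, grouped by complex, with standard errors, in BN and FBN rats. Most points lie right of 0, Cox6b2 lies far left at -3.75 in BN rats and -2.72 in FBN rats, and Atp5mc3 lies at -0.04 and 0.04.

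Complex II had the highest median. Sdha, the flavoprotein that holds the succinate site, read 40872 to 54879 in BN aorta at 6 months (median 44695) and 6548 to 8471 in mesenteric artery (median 7209), a 6.42-fold difference (log2 2.68 ± 0.29 SE, limma adjusted p = 7.45e-12). Sdhb, the iron-sulfur subunit, read 38511 to 50822 (median 45498) against 7051 to 7488 (median 7275), a 6.16-fold difference (log2 2.62 ± 0.25, adjusted p = 5.36e-14). For both genes the vessels did not overlap. The share of all probe sets without overlap in BN rats at 6 months was not counted. Here and for complexes III to V below, the lack of overlap in these rats therefore describes the members only. The membrane anchors Sdhc and Sdhd differed by 1.74 and 1.93 on the log2 scale, and a second probe set of Sdhd by 2.62.

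In complex III the electron-carrying Rieske protein Uqcrfs1 had the largest difference of all members. It read 31902 to 43224 in BN aorta at 6 months (median 33570) and 4097 to 7504 in mesenteric artery (median 4517), 7.30-fold (log2 2.87 ± 0.31, limma adjusted p = 1.01e-11). Uqcrc1, a core protein, read 36388 to 52236 (median 43826) against 6169 to 7371 (median 6464), 6.69-fold (log2 2.74 ± 0.24, adjusted p = 9.88e-15). Neither gene overlapped between the vessels. Uqcrc2, the other core protein, differed by 2.54 ± 0.36 and, by its second probe set, by 4.63 ± 0.66 (adjusted p = 1.5e-08), so the size for this gene depends on the probe set. The small subunits Uqcrh, Uqcr10, Uqcr11 and Uqcrq differed by 2.79- to 3.41-fold.

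Complex IV held members at both ends. Cox5b, a nuclear subunit on the matrix side, read 37990 to 50587 in BN aorta at 6 months (median 45957) and 7900 to 9462 in mesenteric artery (median 8809), 5.10-fold (log2 2.35 ± 0.22, limma adjusted p = 8.01e-14). Cox6b1, on the side where cytochrome c docks, read 41804 to 55978 (median 48800) against 10102 to 12369 (median 11251), 4.31-fold. Cox4i1, the ubiquitous form of the largest nuclear subunit, read 48952 to 62563 (median 56736) against 22326 to 26504 (median 24275), 2.33-fold. These 3 genes did not overlap between the vessels, again with no share over all probe sets counted, and spanned more than a log2 unit in the size of the difference. Cox8a, the ubiquitous form of subunit VIII, read 42937 to 55895 (median 48286) against 15668 to 18604 (median 16463), 2.91-fold. Cox7a2l, which takes part in joining complexes III and IV, read 10707 to 13380 (median 11162) against 9372 to 10742 (median 10109). The Cox7a2l ranges overlapped, and its difference of 0.21 ± 0.06 (adjusted p = 0.00412) became -0.048 under quantile normalisation.

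Cox6b2, the isoform of subunit VIb known from testis, ran the other way. In BN rats at 6 months it read 24 to 94 in aorta (median 63) and 619 to 968 in mesenteric artery (median 779), a fitted log2 difference of -3.75. In FBN rats it read 65 to 236 (median 116) against 597 to 944 (median 731), a fitted difference of -2.72. In BN aorta at 15 months its 5 arrays read 10.04, 49.5, 90.7, 107 and 153. Every one of the 35 aorta arrays (10.04 to 236) lay below every one of the 36 mesenteric arrays (553 to 1024), an order that 3.06% of all probe sets tested shared. All aorta values lay under 292.365, the limit on mean signal for a probe set to be tested. The gene was tested only through its mesenteric signal, so no test of its vessel difference is given, and the size of the difference is less firm than its order.

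In complex V the catalytic head was higher in aorta. Atp5f1a, the alpha subunit, read 32430 to 43205 in BN aorta at 6 months (median 38057) and 7083 to 9649 in mesenteric artery (median 7835), 4.68-fold (log2 2.23 ± 0.25, limma adjusted p = 1.88e-11). Atp5f1b, the catalytic beta subunit, read 52665 to 71356 (median 64585) against 19996 to 22728 (median 20999), 2.95-fold (log2 1.56 ± 0.16, adjusted p = 1.48e-12). The vessels did not overlap for either. Atp5pf, the coupling factor of the stalk, differed by only 0.31 ± 0.10 (adjusted p = 0.00396), a call lost under quantile normalisation.

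A pair of complex V members departed from this. Atp5mc3, one of several genes for the membrane ring subunit c, read 14016 to 18893 in BN aorta at 6 months (median 16182) and 15591 to 17834 in mesenteric artery (median 17085). The ranges overlapped, with a difference of -0.04 ± 0.07 (limma adjusted p = 0.643), although it was called lower at -0.45 under quantile normalisation. Atp5if1, the inhibitor that binds the synthase when it would run backwards, read 1349 to 1797 (median 1758) against 2708 to 3656 (median 3048), a difference of -0.86 ± 0.17 (adjusted p = 1.59e-05). Of the 3 probe sets of Atp5if1 only this one was bright enough to test. The others, below the limit, had log2 means of 7.51 and 5.55 in aorta against 7.33 and 6.05 in mesenteric artery. The BN vessels did not overlap for the tested probe set of Atp5if1. In FBN rats they did, at 1369 to 2163 (median 1773) against 1192 to 3166 (median 2502), with a difference of -0.42 ± 0.17 (adjusted p = 0.0348) that lost its call under quantile normalisation, median scaling, no filter on low signal, and tissue mass as a covariate.

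**Figure D2:**
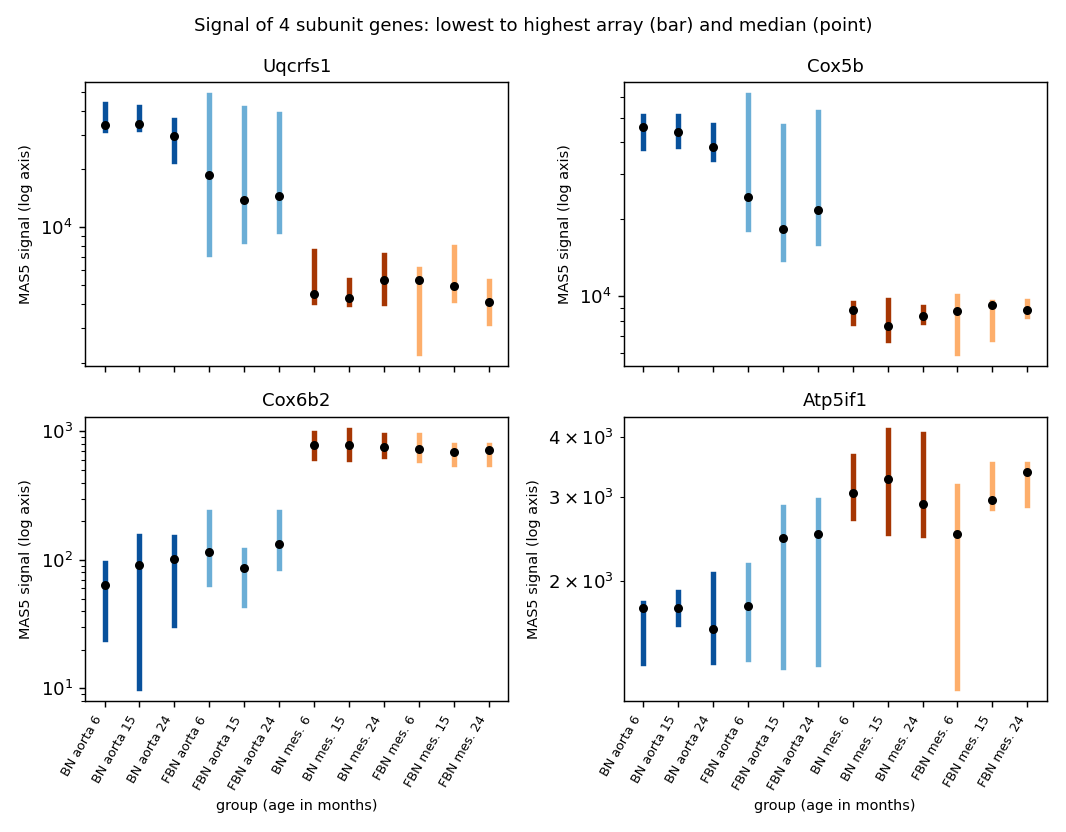
Signal on a log axis for 4 members in the 12 groups. Each bar runs from the lowest to the highest array of a group, and the point is the group median. Uqcrfs1 and Cox5b, high in BN aorta, spread in FBN aorta both below and above the range of the BN aorta arrays. Their highest aorta arrays, both FBN, read 48053 and 61133, against 43224 and 50587 in BN aorta. Cox6b2 lies below the mesenteric arrays in every aorta array.

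The other vessel comparisons gave like counts. In FBN rats at 6 months 36 members were higher and 2 lower (background 23.5% and 31.7%, median 1.24 against -0.09). At 15 months the counts were 36 and 2 in BN rats (27.7% and 39.9%, median 1.77 against -0.17) and 34 and 2 in FBN rats (17.7% and 24.1%, median 0.95 against -0.06). For the mean of both strains at 24 months they were 37 and 2 (27.2% and 39.6%, median 1.35 against -0.11), and Atp5mc3 was then called higher at 0.20 (limma adjusted p = 0.000236). Without Cox6b2 and Cox6c-ps1 these 4 comparisons gave 35 and 1, 35 and 1, 34 and 1, and 36 and 1 of 37 members. Across all 5 comparisons 34 members were higher each time, as were 12.5% of probe sets, and Atp5if1 was lower each time, as were 18.2%. Cox6b2 also lay lower each time, but it passed the signal limit only in mesenteric artery, so this is a description. Atp5mc3, Cox6c-ps1 and Cox7a2l were called in some of the 5 comparisons but not in the same direction in all of them.

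Read array by array, 16 of the 39 members had every aorta array above every mesenteric array, beside 1.61% of all probe sets tested. They were Sdha, Sdhb, Sdhc and Sdhd, Uqcrc1, 6 subunits of complex IV (Cox4i1, Cox5b, Cox6a1, Cox6b1, Cox7b, Cox7c) and 5 of complex V (Atp5f1a, Atp5f1c, Atp5mf, Atp5mg, Atp5pd). With BN aorta alone the number was 34, beside 10.1%. Only Atp5if1, Atp5mc3, Cox6b2, Cox6c-ps1 and Cox7a2l were then outside it.

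The strain difference between the vessels at 6 months was tested directly. The median interaction, FBN minus BN, was -0.51, and it was below 0 for 34 of 39 members, but limma called 0 of them (background 1.53% higher and 1.84% lower), with 14 at an unadjusted p under 0.05 and a smallest adjusted p of 0.101. The count rose to 14 without FBN aorta replicate 2, to 6 without replicate 1 and to 33 with array weights.

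**Figure D3:**
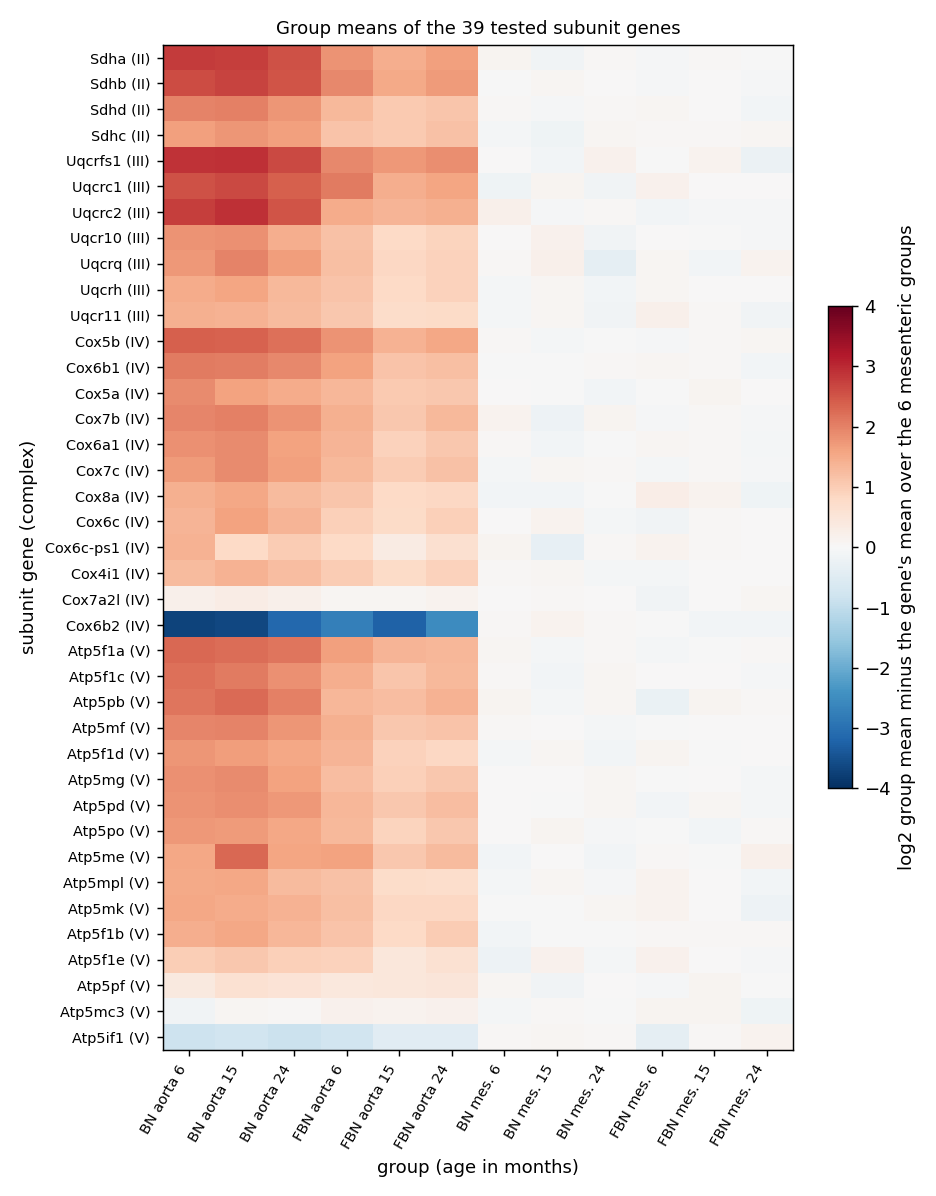
Group means of log2 signal for the members in the 12 groups of vessel, strain and age. Mesenteric groups lie close together and FBN aorta groups lie between them and BN aorta.

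Within aorta, the question was whether the members differed between the strains. At 15 months FBN aorta was lower than BN aorta for 30 of 39 members and higher for 0 (background 11.4% lower and 10.1% higher), with a median log2 difference of -0.85. These were 4 of 4 of complex II, 6 of 7 of III, 9 of 12 of IV and 11 of 16 of V. Sdhb read 42163, 45574, 47294, 50104 and 51315 in the 5 BN arrays and 11128 to 47334 in the 6 FBN arrays (median 17863), a difference of -1.18 (limma adjusted p = 0.0209). Uqcrc1 read 42301, 45191, 46270, 46300 and 53669 against 10996 to 44261 (median 16989), a difference of -1.18 (adjusted p = 0.0195). Sdha read 41373, 43280, 43895, 45993 and 49795 against 9616 to 46220 (median 15035), a difference of -1.30 ± 0.42 (adjusted p = 0.0286). In each the FBN arrays were spread widely, and their highest fell inside the BN range.

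The largest difference at 15 months was that of Uqcrc2, at -1.55 ± 0.51 (limma adjusted p = 0.0318). Uqcrfs1 read 32077, 33217, 34039, 40521 and 41927 in BN aorta and 8489 to 41443 in FBN aorta (median 13812), with a difference of -1.20 (adjusted p = 0.0401). Cox5b read 38866, 41388, 43965, 46911 and 50504 against 14062 to 46238 (median 18396), and Atp5f1b read 61044, 66442, 66820, 67749 and 74289 against 26787 to 60988 (median 35048). Atp5f1b was the one of these whose strains did not overlap. Uqcr10 and Uqcrq, small subunits of complex III, differed by -1.03 (adjusted p = 0.0111) and -1.15 (adjusted p = 0.0173), and Atp5me, of the membrane part of complex V, by -1.24 (adjusted p = 0.0168). The 9 members not called were Uqcr11, Cox5a, Cox6b2, Cox6c-ps1, Atp5f1a, Atp5f1d, Atp5if1, Atp5mc3 and Atp5pf. Atp5if1 read 1622, 1681, 1752, 1813 and 1899 in BN aorta and 1322 to 2852 in FBN aorta (median 2459), a difference of 0.32 in the other direction.

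The number of calls at 15 months rested on single arrays. It ranged from 2 to 35 when 1 array was left out: 2 without FBN replicate 6, 6 without replicate 4, 6 without replicate 5 and 19 without replicate 3, and 18, 11 and 7 without BN replicates 3, 4 and 5. With tissue mass as a covariate it was 0, with 9 members at an unadjusted p under 0.05 and a median of -0.35. With the brown adipocyte score described next it was 0, with 4 and a median of -0.12, where 5.88% of all probe sets were called. At 6 months limma called 1 member, Atp5mc3, higher in FBN aorta at 0.29 ± 0.07 (adjusted p = 0.01, background 7.72% higher and 8.93% lower), and 0 lower, with a median of -0.47. That count was 15 without FBN replicate 1, 21 without replicate 2 and 2 without BN replicate 6. At 24 months it called 0 (background 7.14% and 7.98%), with 18 at an unadjusted p under 0.05, a median of -0.51 and 36 of 39 differences below 0, and 27 without FBN replicate 1. Whether the strain difference changed from 6 to 24 months was tested as an interaction, which called 0 members and had 0 at an unadjusted p under 0.05 (background 0.012% higher and 0.0179% lower).

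What the strains showed at each age was a wider spread in FBN aorta. The median within-group SD of log2 signal over the members was 0.62 in FBN aorta, 0.16 in BN aorta and 0.19 in mesenteric artery, against 0.38, 0.25 and 0.25 over all probe sets tested. It was larger in FBN than in BN aorta for 36 of 39 members, all but Atp5mc3, Cox6b2 and Cox6c-ps1. At 6, 15 and 24 months 31, 35 and 33 members had 4 or more of the 6 FBN arrays below every BN array (background 19.9%, 24.8% and 22.6%). All 6 lay below for 0, 3 and 0 members (1.72%, 3.25% and 2.42%). At least 1 FBN array lay above the BN range for 36, 8 and 34 members. At 6 and 24 months FBN arrays thus reached beyond the BN arrays on both sides for most members. The share of all probe sets with an FBN array above the BN range was not counted, so this describes the members only.

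**Figure D4:**
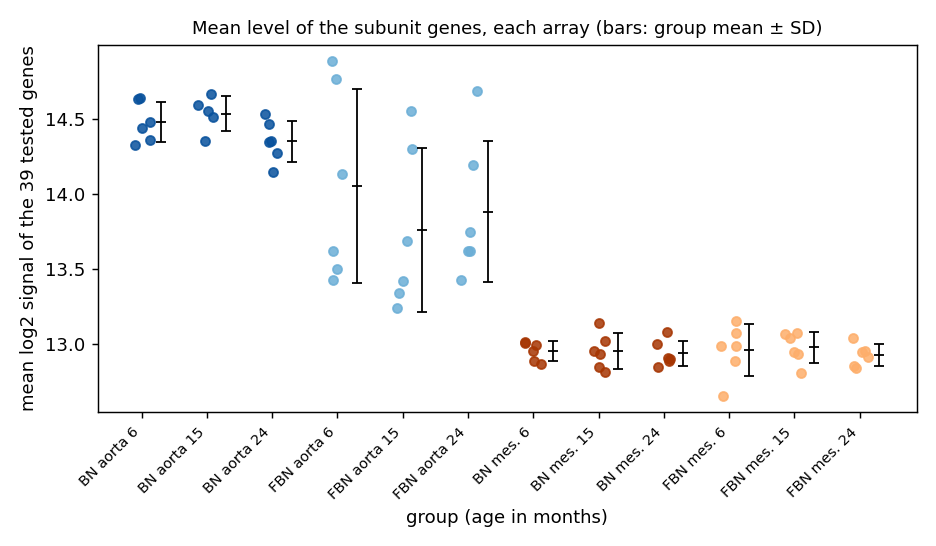
Mean log2 signal of the 39 members in each array, by group. FBN aorta arrays run from 13.24 to 14.89, BN aorta arrays from 14.15 to 14.67, and mesenteric groups average 12.93 to 12.98.

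Array means over the members showed the same layout. BN aorta averaged 14.48 ± 0.13, 14.54 ± 0.12 and 14.35 ± 0.14 (SD, n = 6, 5 and 6) at 6, 15 and 24 months, and FBN aorta 14.06 ± 0.65, 13.76 ± 0.55 and 13.88 ± 0.47 (SD, n = 6 each). Mesenteric groups averaged 12.93 to 12.98. The labels give a tissue mass for each sample. It averaged 25.9, 24.6 and 25.4 mg in BN aorta and 18.6 ± 8.9, 16.2 ± 10.01 and 18.6 ± 7.5 mg in FBN aorta, so the group with the wider spread in the members also had the wider spread in mass. The part of mass in the strain difference was not tested beyond the covariate fit above.

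Brown adipocyte markers moved with the members. The score was the mean log2 signal of the 7 markers that could be tested, of 10 listed and 8 with a probe set, and held no member. It was 13.28, 13.06 and 12.86 in BN aorta at 6, 15 and 24 months, 12.23 ± 1.18, 11.70 ± 1.19 and 11.92 ± 0.88 (SD, n = 6) in FBN aorta, and 7.54 to 7.91 in the mesenteric groups. On the summed log2 signal of all markers with a probe set, BN aorta lay at 17.18 to 17.79, FBN aorta at 15.60 to 18.08 and mesenteric artery at 11.50 to 12.92. All 7 markers were higher in BN aorta than in mesenteric artery at 6 months, and Ucp1 itself read 9 to 150 across the mesenteric arrays, so this defining gene was near the floor there.

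Across the 35 aorta arrays, with group means removed, 36 of 39 members rose with the score and 2 fell (limma, background 31% and 36.7%). The median slope was 0.52 log2 per log2 of score, against -0.02 over all probe sets. Uqcrc2 had the steepest slope, 0.98 ± 0.08 (adjusted p = 1.33e-12), followed by Sdha at 0.85, Uqcrfs1 at 0.83 and Sdhb at 0.71. Atp5if1 fell by 0.33 ± 0.04 (adjusted p = 2.35e-08) and Atp5mc3 fell by 0.05 (adjusted p = 0.0408), while Cox6b2 had a slope of -0.26 (adjusted p = 0.244). These are the 3 members that were not higher in aorta than in mesenteric artery in BN rats at 6 months. All aorta values of Cox6b2 lay under the limit on mean signal, so nothing is read from its slope. In FBN aorta alone 35 rose and 2 fell (29.9% and 35.8%, median 0.54). In BN aorta alone, where the score varied little, limma called 0 (0.317% and 0.0957%, median 0.33), with 30 members at an unadjusted p under 0.05, 29 of them positive. What this covariation owes to cell make-up was not tested.

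**Figure D5:**
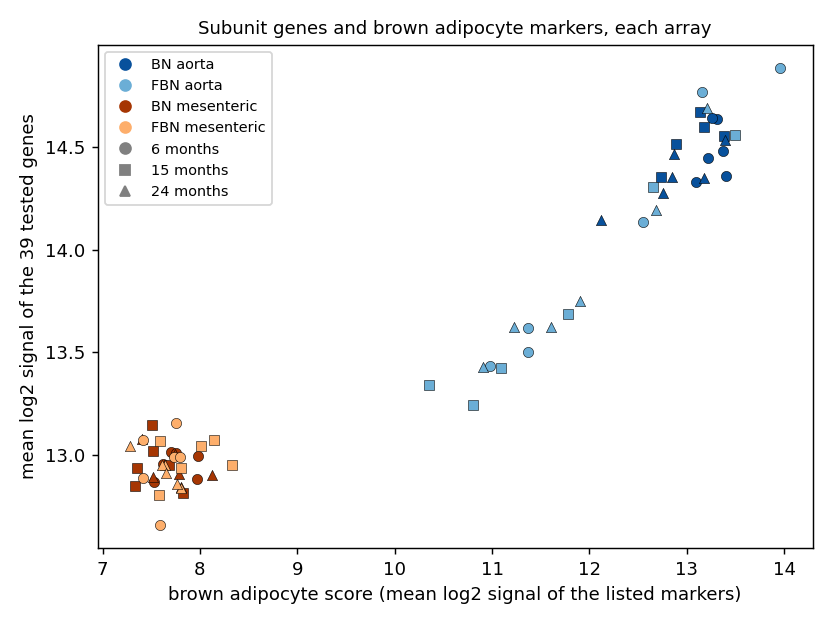
Mean log2 signal of the 39 members against the brown adipocyte score, 1 point per array, by vessel and strain. The mesenteric arrays form a group of their own at a low score, and FBN aorta arrays spread along a line that BN aorta arrays join at its upper end.

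The markers of muscle singled out 2 aorta arrays. Cox6a2, the heart and skeletal muscle form of subunit VIa and too low to test, read 4497 in FBN aorta at 6 months replicate 1 and 978 in BN aorta at 15 months replicate 4, and at most 157 in every other array. The same arrays had the highest summed log2 signal of 13 muscle markers, 16.80 and 14.94, with the creatine kinase Ckm at 17592 and 3578. Cox8b, the heart-type form of subunit VIII that the selection left out, read 44027 to 63344 in BN aorta, 11500 to 72316 in FBN aorta and 3 to 64 in mesenteric artery. Its signal was thus high in every aorta array, not only in the 2 singled out by muscle markers, and its cell source was not tested. Cox7a1, the other isoform left out, did not share this. It read 234 to 716 in BN aorta, 30 to 848 in FBN aorta and 113 to 623 in mesenteric artery, so the vessels overlapped. At 6 months its fitted log2 difference, aorta minus mesenteric, was 1.14 in BN rats and -0.20 in FBN rats.

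Age was compared within each vessel. In aorta limma called 0 of 39 members from 6 to 24 months in BN rats (background 0.67% higher and 0.586% lower), in FBN rats (0.742% and 0.365%) and over both strains (3.28% and 1.54%). At an unadjusted p under 0.05 there were 1, 0 and 0, and the median changes were -0.16, -0.20 and -0.18. Among the widest changes, none called, Cox5a differed by -0.38 and Cox6b2 by 0.56 ± 0.50 in BN aorta (adjusted p = 0.602 and 0.719), and Atp5f1d by -0.52 in FBN aorta (adjusted p = 0.469). From 6 to 15 months in BN aorta 0 were called (0.215% and 0.449%), 4 at an unadjusted p under 0.05, with the widest change in Atp5me, 0.77 ± 0.36 (adjusted p = 0.451). With the brown adipocyte score as a covariate 2 of 39 members were called in that comparison, beside 3.36% of all probe sets. They were Atp5me at 0.91 (limma adjusted p = 0.00258) and Cox6c at 0.37 (adjusted p = 0.0479).

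In mesenteric artery the members varied little between groups. The means of the 6 groups lay within 0.5 log2 for 37 of 39 members, all but Atp5if1 and Uqcrq at 0.50 and 0.57, and the median range was 0.25, against 0.39 over all probe sets. From 6 to 15 months in BN rats Uqcrc1 rose by 0.31 ± 0.08 (limma adjusted p = 0.0354, background 1.72% higher and 1.77% lower), and in FBN rats 0 were called (0.012% and 0%). From 6 to 24 months over both strains Uqcr11 fell by 0.21 ± 0.07 (adjusted p = 0.0472, background 2.98% and 3.3%). Each of these single calls was lost under other settings given in the closing section.

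Between the strains at 6 months, mesenteric Uqcrc1 and Cox8a were higher in FBN rats by 0.36 ± 0.08 (limma adjusted p = 0.00612) and 0.36 ± 0.11 (adjusted p = 0.0293), 2 of 39 members against a background of 5.06% higher and 5.73% lower. Left without FBN mesenteric replicate 1, the count was 6. At 15 months 0 were called (1.72% and 1.4%), with the smallest adjusted p for Uqcrq, -0.31 (adjusted p = 0.151). At 24 months, with the strains as labelled, Uqcrq was higher in FBN rats by 0.48 ± 0.12 (adjusted p = 0.0095, background 2.32% and 2.46%), and with the strain labels of those arrays exchanged it was lower.

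The wider pathway was read from lists of other genes, with counts for aorta against mesenteric artery in BN rats at 6 months. Complex I, which feeds electrons from NADH, had 35 of 36 genes higher and 0 lower (median 2.09), and assembly factors 24 of 24 (1.19). Electron carriers had 11 of 12 higher and 1 lower. Those higher included Cyc1, the cytochrome of complex III, at 2.61 and Etfdh, which passes electrons from fatty acid oxidation to coenzyme Q, at 4.35. The citric acid cycle had 14 of 14 higher (2.48), fatty acid oxidation 14 of 15 with 1 lower (3.32) and mitochondrial ribosomal proteins 70 of 73 with 1 lower (1.27). The 2 mitochondrially encoded subunits of complex IV on the array, COX1 and COX2, differed by 0.43 ± 0.12 (limma adjusted p = 0.00156) and 0.41 ± 0.12 (adjusted p = 0.00145). Both are smaller than the median of the nuclear subunits, although this difference was not tested.

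Among regulators of mitochondrial genes, 10 of 16 were higher and 4 lower, beside 25.9% and 41.5% of all probe sets. Esrrg and Esrra, the oestrogen-related receptors, differed by 4.69 and 2.60, and their coactivators Ppargc1a and Ppargc1b by 2.87 and 2.63, Ppargc1a being also in the brown adipocyte list. Nrf1, which binds the GCGCATG letters searched above, was lower at -1.16 (limma adjusted p = 6.72e-10), and Gabpa, the ETS factor of GABP, differed by 0.12 (adjusted p = 0.354). Between the strains at 15 months in aorta the neighbours of the members were also lower in FBN rats: 23 of 36 genes of complex I (median -0.89), 11 of 14 of the citric acid cycle, 14 of 15 of fatty acid oxidation and 13 of 24 assembly factors, with 0 higher in each, beside 11.4% lower and 10.1% higher of all probe sets. With tissue mass as a covariate these counts were 0, 0, 1 and 0, with 3, 2, 7 and 8 genes at an unadjusted p under 0.05. With the brown adipocyte score they were 0, 1, 1 and 0, with 4, 2, 6 and 5, where 5.88% of all probe sets were called. The members' own count in this comparison fell to 2 without FBN aorta replicate 6, and the lists were not recounted without it. Brown adipocyte markers were lower for 4 of 7 (median -1.16), Ucp1 at -0.86 (adjusted p = 0.0402), and the 8 smooth muscle markers, none of which was called, had a median of 0.83.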

How the data were processed

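RNA was extracted with a fibrous tissue kit and labelled as biotin cRNA, per the labels' protocols. Per the submitters' processing notes, GCOS and MAS5 were used, with versions not given, and the deposited values are linear signal intensities. The table holds 31099 probe sets on 71 arrays, 57 of them controls. GEO's platform annotation gave 20832 probe sets 1 symbol, 436 several and 9780 none. Signals were taken to log2 without offset. A probe set was tested if its mean in either vessel reached the median over all, a signal of 292.365, which left 16717. Groups were compared with limma 3.58.1 in R 4.3.3 (lmFit, eBayes with trend and robust, Benjamini-Hochberg over all tested), in 1 fit per vessel, and in a fit of all 12 groups between vessels. The slope on the brown adipocyte score was added after seeing the data. The fits were tested on simulated data. Alternatives were another scaling, offset, filter, eBayes setting, array weights, a joint fit, covariates and leaving out each array. Named in each comparison were up to 3 members with the largest and 3 with the smallest change, up to 6 called members of smallest p, members with a tissue isoform, a core member of each complex, and up to 3 genes of other lists. Ckm, Cox7a1, Cox8b, Myh11 and further regulators were chosen after their values were seen. Members and lists were chosen with earlier results of these data known. Gene positions other than the promoters were not used here.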

Additional observations from a re-analysis of the deposited data

Results flagged for a closer look

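Of 240 group and measure pairs tested for an array far from the rest of its group, 17 stood out, where chance gives about 1 in 20. Of these, 16 were mesenteric, and the other is Atp5if1 in BN aorta at 6 months, replicate 2, at log2 10.40 against 10.72 to 10.81. FBN mesenteric replicate 2 at 6 months was the lowest of its group for the complex II mean (12.48 against 12.91 to 13.14), Sdha (12.14 against 12.66 to 12.82), Uqcrfs1 (11.12 against 12.16 to 12.56) and Atp5f1a (11.80 against 12.84 to 13.29). That array also had a log2 ratio of 3' to 5' probe sets of 1.91 for Gapdh and 3.16 for Actb; the part of RNA quality in its values was not tested. FBN mesenteric replicate 6 at 15 months was lowest for the complex II mean (12.63 against 12.93 to 13.07) and Cox5b (12.74 against 13.11 to 13.22) and highest for Cox7a2l (13.58). Uqcrfs1 was highest in BN mesenteric replicate 3 at 15 months (12.38 against 11.97 to 12.11) and replicate 5 at 6 months (12.87 against 12.0003 to 12.22). Cox7a2l was highest in the mesenteric array labelled BN, 24 months, replicate 5 (13.56), and lowest in that labelled FBN, 24 months, replicate 4 (13.32) and in FBN at 6 months, replicate 1 (12.99). Cox8a was highest in the mesenteric array labelled FBN, 24 months, replicate 6 (14.18) and in FBN at 6 months, replicate 4 (14.87). Atp5f1b was lowest in the mesenteric array labelled BN, 24 months, replicate 5 (14.30), and the brown adipocyte score in that labelled FBN, 24 months, replicate 6 (7.29 against 7.61 to 7.80).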

How the results depend on the processing

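Counts are of members called in either direction. Vessel comparisons held under every setting tried for 36 of 38, 34 of 38, 37 of 38, 35 of 36 and 37 of 39 called members (BN 6, FBN 6, BN 15, FBN 15 and mean 24 months), and leaving out 1 array gave 38, 36 to 38, 38, 34 to 36 and 39. These counts include Cox6b2 and, where called, Cox6c-ps1, which passed the signal limit in 1 vessel only. They were not recounted without the pair, so for the pair they are no check of a vessel difference. Median scaling moved the median of all probe sets in BN rats at 6 months from -0.18 to -0.03 and that of the members to 1.93, and quantile normalisation gave 34 higher and 3 lower (median 1.41), with Cox7a2l at -0.048. Over all probe sets the split was 4327 higher and 6935 lower, against 4947 and 6265 with quantile normalisation and 5360 and 5512 with median scaling. Vessel by strain at 6 months gave 1 with quantile normalisation, 33 with array weights and 0 to 14 leaving out 1 array.

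In aorta, strain at 6 months gave 7 with quantile normalisation, 2 with an offset, with plain eBayes or with the brown score, 33 with weights, 18 in 1 fit of both vessels and 1 to 21 leaving out 1 array. Strain at 15 months gave 0 with mass or the brown score and 2 to 35 leaving out 1 array, and strain at 24 months 8 with quantile normalisation, 36 with weights, 24 in 1 fit and 0 to 27. Age gave 1 with weights or the brown score over both strains, 2 with either from 6 to 15 months in BN rats, and 0 to 0 leaving out 1 array.

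In mesenteric artery, BN rats from 6 to 15 months gave 2 with quantile normalisation, 5 with weights, 0 with no filter, 1 fit or mass, and 0 to 1 leaving out 1 array. From 6 to 24 months counts were 3 with quantile normalisation, 4 with weights, 0 with median scaling, no filter, plain eBayes, 1 fit or mass, and 0 to 1. Strain at 6 months gave 6 with quantile normalisation, 4 with weights, 1 in 1 fit and 1 to 6, at 15 months 1 with no filter or weights, and at 24 months 2 with quantile normalisation, 3 with weights, 0 in 1 fit, 1 with labels exchanged and 1 to 1. The cause of these differences was not tested. No paired analysis was possible because the labels give no replicate numbers that link samples across groups. The number of arrays limits the precision.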
